A study of Mus musculus with 4 samples.

Results

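The chemokine ligand genes encode the small secreted or membrane-tethered proteins that steer leukocytes along gradients. They were taken by gene name from an expression array study of mouse macrophages: every gene whose single annotated symbol is Ccl, Cxcl or Cx3cl1 with its number, or Xcl1, Pf4 or Ppbp. This rule found 40 genes on 41 probe sets, of 19505 named genes in all, and used no measured value except to keep the brighter probe set of Ccl21b. The study set 2 macrophage cultures of Hem1 KO mice against 2 of WT mice, each from a different animal and each on 1 array. Hem1, encoded by Nckap1l, is the blood cell subunit of the WAVE complex, which drives branching of actin filaments. Femoral marrow gave rise to all 4 cultures over 8 days, in RPMI to which 10% fetal calf serum and 20% L929 cell supernatant, a source of the growth factor CSF1, had been added. No stimulus, age or strain is named in the labels, nor is the part of Nckap1l that was deleted. Whole cultures were measured, so that fewer cells of a type and less RNA per cell cannot be told apart.

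Chemokines bind G protein-coupled receptors whose Gi signal activates Rac and the actin machinery of the leading edge. The CC ligands Ccl2, Ccl7 and Ccl12 draw monocytes through CCR2, Ccl3, Ccl6 and Ccl9 act on CCR1, and the CXC ligands Cxcl1, Cxcl2 and Cxcl3 draw neutrophils through CXCR2. Macrophages make many of these after an inflammatory signal through NF-kB, and Cxcl10 after interferon, while Cxcl12 is made by the stromal cells of the marrow and holds blood progenitors there through CXCR4.

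The values are the authors' log2 RMA values, in which 1 unit is a doubling, and no probe set's level can be compared with that of another. Nckap1l read 10.04 and 9.62 on the Hem1 KO arrays, against 11.37 and 11.11 on the WT arrays, 2.66-fold lower (-1.41, SE 0.32, adjusted p = 0.0467 by limma). That call ended when either WT array (-1.28 and -1.54) or Hem1 KO replicate 2 (-1.20) was omitted, and with dim genes left out. The 9 measured macrophage markers were above background on all 4 arrays. Replicate 1 of each genotype was the brighter array, by 0.47 for Hem1 KO and 0.40 for WT in the array medians, and Hem1 KO replicate 1 had the narrowest spread of values (SD 2.00, against 2.15 on each of the other arrays). As background, each array's 95th percentile over 1450 chemosensory receptor genes (olfactory, vomeronasal, taste) was used, which gave 6.04 and 5.38 for Hem1 KO and 5.87 and 5.51 for WT. Differences are Hem1 KO minus WT with the standard error (SE) of limma's fit over all genes, n is 2 arrays per genotype throughout, and a call needs an adjusted p under 0.05 over all 19505 genes. The number of arrays limits the precision, and an exact permutation test of 2 against 2 could not give a two-sided p under 0.333.

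One chemokine gene, Cxcl12, was higher in the Hem1 KO cultures, and no chemokine gene was called lower. This 1 of 40 stands beside 1.48% of all genes called higher, and the 0 of 40 beside 0.133% called lower. At an unadjusted p under 0.05 limma had 1 member higher, against 3.63% of all genes, and 1 lower, against 1.57%. The arrays of the genotypes did not overlap for 4 members that read higher in Hem1 KO (Cxcl12, Cxcl14, Ccl12 and Ccl19), against 12.5% of all genes, and for 2 that read lower (Ccl6 and Ccl9), against 13.3%. The median difference of the 40 genes was 0.06, beside 0.01 over all genes, with 23 above 0 and 17 below. The adjusted p was 0.938 for Ccl6 and at least 0.9997 for the other 38 uncalled members by limma. The differences ran from -0.86 to 2.06, and 2 genes, Cxcl12 and Ccl8, differed by 1 or more.

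Other fits set other backgrounds for the calls that are given below for single genes. Of all genes, 1.70% were called higher on omitting WT replicate 1, 0.948% on omitting WT replicate 2, 1.38% on omitting Hem1 KO replicate 1 and 2.79% on omitting Hem1 KO replicate 2. The shares called lower were 0.133% and 0.277% on omitting the first and the second WT array, and 0.518% and 0.272% on omitting the first and the second Hem1 KO array. With the replicate number as a block 3.18% were higher and 1.02% lower, after median centring 2.05% and 0.359%, after quantile normalization 1.61% and 0.082%, with dim genes left out 1.33% and 0.0612%, with the prior variance following intensity 2.10% and 1.05%, and at an adjusted p under 0.10 1.77% and 0.195%. The chemokine ligands called higher numbered 1 to 3 over these fits, and those called lower 0 to 2.

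**Figure D1:**
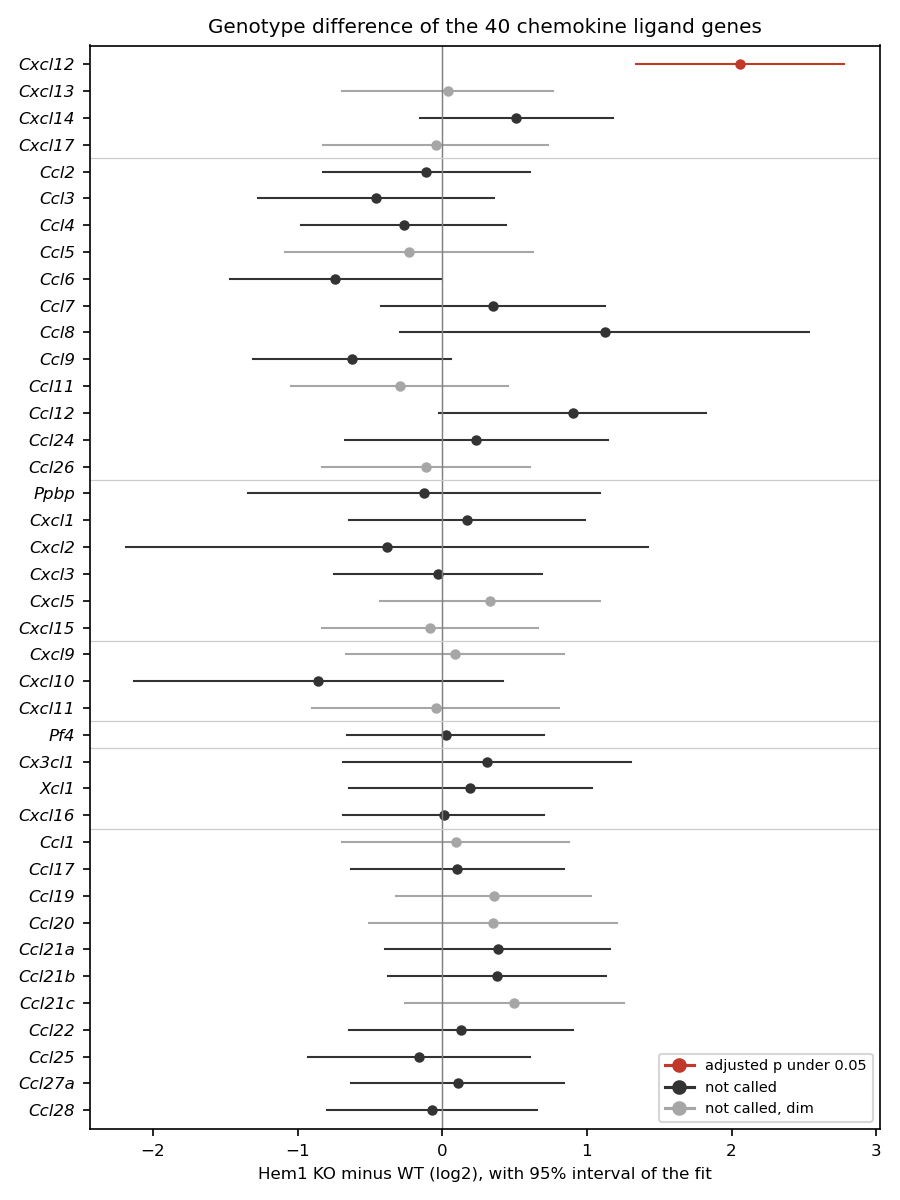
Hem1 KO minus WT difference (log2, horizontal axis) of each of the 40 chemokine ligand genes, with the 95% interval of limma's fit, grouped by role. Cxcl12, in red at 2.06, is the only one called, and the gray genes were above background on both arrays of neither genotype.

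Of the 40 genes, 23 lay above background on all 4 arrays, 7 on 1 to 3 arrays and 10 on none. That share, 57.5%, stands beside 60.4% of all genes. With the 99th percentile of the receptor genes in place of the 95th, 18 members remained above background on all arrays, and the ones lost were Ccl22, Cxcl10, Cx3cl1, Xcl1 and Cxcl14. The 27 genes above background on both arrays of at least 1 genotype are described below by array. The other 13, Ccl1, Ccl5, Ccl11, Ccl19, Ccl20, Ccl21c, Ccl26, Cxcl5, Cxcl9, Cxcl11, Cxcl13, Cxcl15 and Cxcl17, read between 3.97 and 6.42 over all arrays. Their differences lay between -0.29 and 0.50, with no unadjusted p under 0.180 by limma. They include the T cell chemokine Ccl5 (RANTES), which was above background on WT replicate 1 alone, and the interferon-induced Cxcl9 and Cxcl11 and the B cell chemokine Cxcl13, which were above background on no array.

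**Figure D2:**
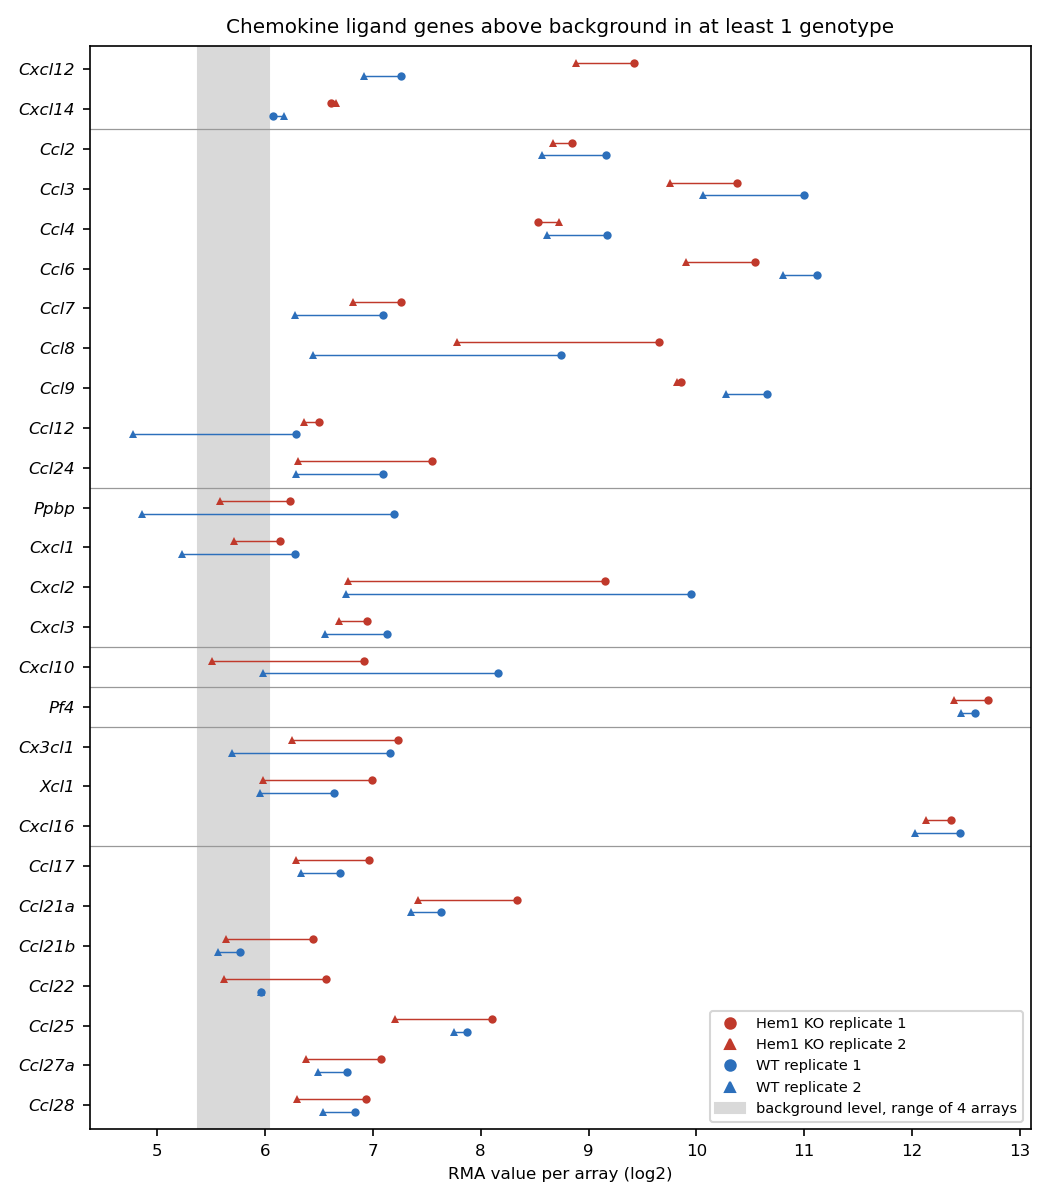
RMA values (log2, horizontal axis) of the 27 genes above background on both arrays of at least 1 genotype, with Hem1 KO above WT in each row, circles for replicate 1, triangles for replicate 2 and a line joining the 2 arrays of a genotype. Cxcl12 stands apart by genotype (9.42 and 8.88 in Hem1 KO, against 7.26 and 6.92 in WT), while Cxcl2, Ccl8 and Cxcl10 are spread by replicate.

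For some of the members, the 250 bases before the transcription start are given from RefSeq (GRCm38.p6). They show the sequence beside the gene that differed by genotype (Cxcl12) and those that read lower side by side (Ccl6 and Ccl9). Of the genes that differed by replicate, only Cxcl2 and Cxcl10 are shown. Capitals mark matches on either strand to a kappa B motif (GGG and TTCC with 3 bases of any kind between them), an interferon response motif (GAAA and GAAA with 2 bases of any kind between them) or an AP-1 motif (TGANTCA, which reads the same on both strands), and overlapping matches run together.
Cxcl12 (chr6:117168285-117168534, plus strand): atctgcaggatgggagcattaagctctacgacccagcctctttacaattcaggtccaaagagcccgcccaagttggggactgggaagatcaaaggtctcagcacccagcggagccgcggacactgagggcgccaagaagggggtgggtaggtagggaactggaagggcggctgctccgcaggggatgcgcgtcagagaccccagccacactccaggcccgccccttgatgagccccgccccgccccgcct
Ccl6 (chr11:83593088-83593337, minus strand): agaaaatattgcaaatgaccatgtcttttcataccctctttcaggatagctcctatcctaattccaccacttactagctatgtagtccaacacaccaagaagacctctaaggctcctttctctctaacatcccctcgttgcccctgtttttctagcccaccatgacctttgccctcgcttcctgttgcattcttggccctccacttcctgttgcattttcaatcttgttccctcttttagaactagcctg
Ccl9 (chr11:83578637-83578886, minus strand): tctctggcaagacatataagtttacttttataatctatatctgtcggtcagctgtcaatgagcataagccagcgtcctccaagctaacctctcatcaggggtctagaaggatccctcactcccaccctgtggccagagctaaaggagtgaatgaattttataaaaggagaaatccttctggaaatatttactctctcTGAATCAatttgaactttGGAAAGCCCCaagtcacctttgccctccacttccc
Cxcl2 (chr5:90903649-90903898, plus strand): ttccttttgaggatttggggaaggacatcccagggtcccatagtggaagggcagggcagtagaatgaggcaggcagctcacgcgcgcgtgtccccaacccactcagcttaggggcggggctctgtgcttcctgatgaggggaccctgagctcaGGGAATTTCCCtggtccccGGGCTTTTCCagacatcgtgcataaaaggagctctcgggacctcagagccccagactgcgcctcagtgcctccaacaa
Cxcl10 (chr5:92348890-92349139, minus strand): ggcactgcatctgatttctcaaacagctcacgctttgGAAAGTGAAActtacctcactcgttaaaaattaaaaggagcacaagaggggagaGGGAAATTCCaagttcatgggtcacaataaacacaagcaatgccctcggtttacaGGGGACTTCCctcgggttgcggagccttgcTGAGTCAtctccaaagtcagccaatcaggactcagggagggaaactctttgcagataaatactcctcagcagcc

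RefSeq promoters were matched for 28 of the 40 genes, in 31 windows. The kappa B letters stood in 7 of these windows (Ccl1, Ccl9, Ccl20, Cxcl1, Cxcl2, Cxcl3 and Cxcl10), against 4.65% of 32851 windows of the same length in the whole table. The interferon motif stood in 3 (Ccl19, Cxcl10 and Cxcl14), against 2.98%, and the AP-1 motif in 4 (Ccl9, Ccl27a, Ppbp and Cxcl10), against 6.75%. Of the 28 genes only Cxcl10 held all 3 motifs. Cxcl1, Cxcl2 and Cxcl3 shared the same 11-base run GGGAATTTCCC, in which the motif reads on both strands. In the windows of Cxcl12 and Ccl6 none of the 3 motifs was found. Nor was any found in those of Ccl8, Ccl12 and Cx3cl1, which also differed by replicate and are not shown. With each array centred on its median, Cxcl3 had replicate gaps of -0.21 in Hem1 KO and 0.18 in WT, against 1.92 and 2.80 for Cxcl2. A link between the motifs and the replicate gaps was not tested.

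Cxcl12, the CXCR4 ligand of marrow stroma, read 9.42 and 8.88 in the Hem1 KO cultures, against 7.26 and 6.92 in the WT cultures. Both Hem1 KO arrays lay above both WT arrays, and the gaps between replicates, 0.54 in Hem1 KO and 0.35 in WT, were small beside the difference of 2.06 (SE 0.33, 95% interval 1.34 to 2.78, 4.17-fold, adjusted p = 0.00474 by limma). The gene was also above background on both WT arrays. Leaving out any 1 array kept the call, with differences of 1.79 to 2.33. Its receptor Cxcr4 read 12.35 and 11.51 in Hem1 KO, against 12.29 and 11.69 in WT (difference -0.06, SE 0.37), and those arrays overlapped. Its scavenging receptor Ackr3 read 6.75 and 6.11 in Hem1 KO, against 6.10 and 5.29 in WT (0.73, SE 0.37, not called), with WT replicate 2 below background.

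Markers of stromal cells moved with Cxcl12. Of 11 measured markers, Cxcl12 included, 7 were higher and 0 lower, all 11 lay above 0, and the median difference was 1.94. The other 10 summed to 11785 and 9229 on the linear scale in Hem1 KO, against 3102 and 2307 in WT. Prrx1, a transcription factor of mesenchymal cells, was 7.06-fold higher (10.62 and 10.42, against 7.77 and 7.64), the receptor Pdgfrb 5.14-fold and the collagen Col1a1 3.92-fold. Of the defining markers, Lum and Thy1 were below background on all arrays. Whether stromal cells account for the higher Cxcl12 was not tested.

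**Figure D3:**
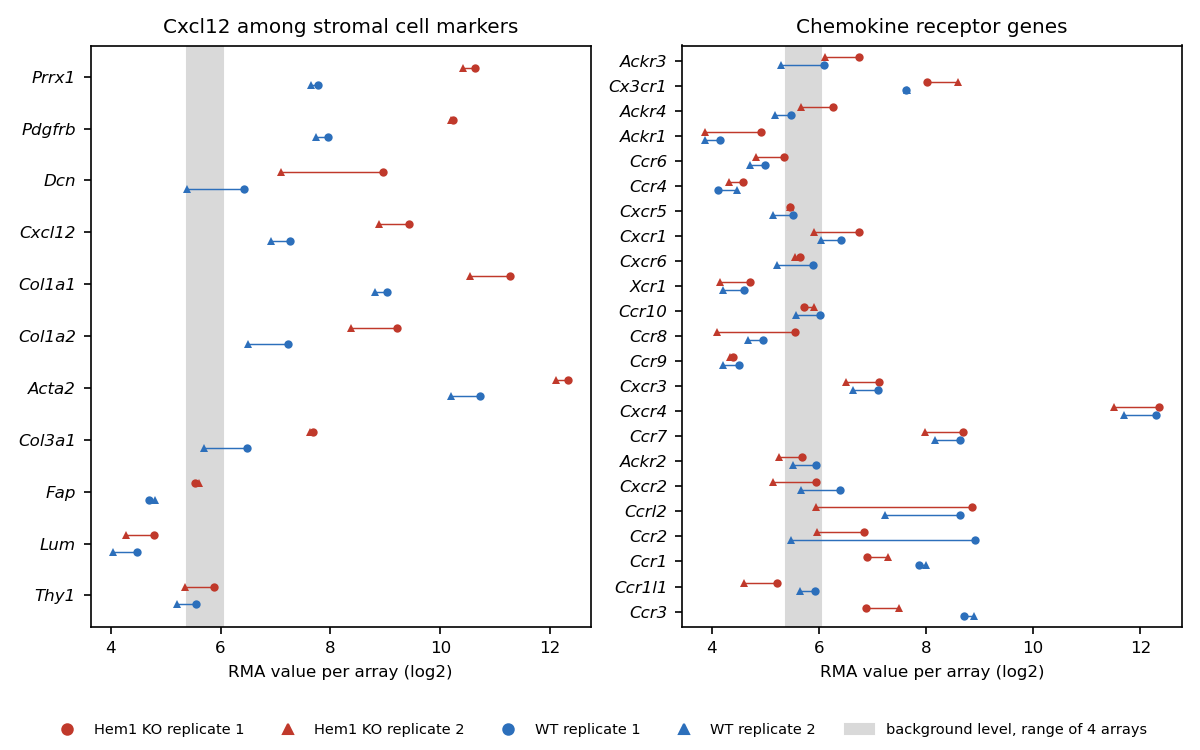
RMA values per array (log2, horizontal axes) of Cxcl12 among the stromal cell markers (left) and of the chemokine receptor genes (right), each ordered from the highest to the lowest Hem1 KO minus WT difference, with Hem1 KO above WT in each row. The 7 called stromal markers stand to the right in Hem1 KO, and Ccr3, at the foot of the receptors, stands to the left of its WT values.

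Of the other 3 CXC ligands of tissues, only Cxcl14, a chemokine of epithelia that attracts monocytes, was measurable. It read 6.62 and 6.66 in Hem1 KO, against 6.08 and 6.18 in WT. The arrays did not overlap and the replicate gaps were 0.05 and 0.10, but the difference of 0.51 (SE 0.31) was not called. With each array centred on its median, replicate 2 was the higher, by 0.51 in Hem1 KO and 0.50 in WT. Both of these gaps were larger than the centred difference of 0.41. The WT values were close to background.

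The 12 CC ligands of inflammation included the members with the most even lower readings. None was called, 4 lay above 0 and 8 below, and their median was -0.17. Ccl6 and Ccl9, myeloid chemokines of rodents that act on CCR1, are neighbours in the chromosome 11 cluster. Ccl6 read 10.55 and 9.90 in Hem1 KO, against 11.12 and 10.80 in WT. Ccl9 read 9.86 and 9.82 in Hem1 KO, against 10.66 and 10.27 in WT. In both genes each Hem1 KO array lay below each WT array, and both replicate gaps (0.64 in Hem1 KO and 0.32 in WT for Ccl6, 0.03 and 0.39 for Ccl9) were smaller than the difference of the means. Ccl6 differed by -0.74 (SE 0.34, 95% interval -1.47 to -0.01, 1.67-fold, adjusted p = 0.938 by limma) and Ccl9 by -0.63 (SE 0.32, interval -1.31 to 0.06, 1.54-fold, not called). Ccl6 was called lower where the prior variance followed intensity (adjusted p = 0.00936). Their receptor Ccr1 read 6.89 and 7.28 in Hem1 KO, against 7.86 and 7.99 in WT (-0.84, SE 0.32, adjusted p = 0.567 by limma), also without overlap.

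Ccl3 and Ccl4, known as macrophage inflammatory proteins, lie next in the same cluster and overlapped between the genotypes. Ccl3 read 10.38 and 9.76 in Hem1 KO, against 11.00 and 10.06 in WT (-0.46, SE 0.38). Ccl4 read 8.53 and 8.73 in Hem1 KO, against 9.17 and 8.62 in WT (-0.27, SE 0.33). WT replicate 1 was the highest array for both, and without it the differences were 0.01 for each.

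The CCR2 ligands did not move as a group. Ccl2, the main monocyte attractant, read 8.85 and 8.67 in Hem1 KO, against 9.17 and 8.57 in WT, a difference of -0.11 (SE 0.33, interval -0.83 to 0.60) that was 0.19 without WT replicate 1. Ccl7 read 7.26 and 6.81 in Hem1 KO, against 7.10 and 6.28 in WT (0.35, SE 0.36), and was -0.06 without WT replicate 2. Ccl12 read 6.50 and 6.37 in Hem1 KO, against 6.29 and 4.77 in WT. Only WT replicate 2 lay far from the other 3 arrays for Ccl12, below background. The difference of Ccl12, 0.90 (SE 0.43, not called), was 0.14 without WT replicate 2 and 1.66, then called, without WT replicate 1 (adjusted p = 0.0494). Ccr2 itself read 6.84 and 5.97 in Hem1 KO, against 8.91 and 5.49 in WT, so that both the highest and the lowest value fell to WT (-0.80, SE 0.75).

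Ccl8, a further CC ligand of inflammation on chromosome 11, had the largest uncalled difference of the 40. It read 9.66 and 7.78 in Hem1 KO, against 8.75 and 6.44 in WT. Replicate 1 was high and replicate 2 low in both genotypes, with gaps of 1.87 and 2.31, both larger than the difference of 1.12 (SE 0.66, interval -0.29 to 2.54). Omitting WT replicate 1 made it a call (2.28, adjusted p = 0.000626 by limma), as did omitting the second Hem1 KO array (2.06, adjusted p = 2.87e-05), and it was called where the prior variance followed intensity (adjusted p = 0.0294), but it stood at -0.03 when WT replicate 2 was omitted and at 0.19 when Hem1 KO replicate 1 was.

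Ccl24 (eotaxin 2), which acts on the eosinophil receptor CCR3, read 7.55 and 6.31 in Hem1 KO, against 7.09 and 6.29 in WT (0.24, SE 0.42), and its sign turned without WT replicate 2 (-0.17) or Hem1 KO replicate 1 (-0.38). Ccr3 was the 1 called gene of 18 measured chemokine receptors. It read 6.88 and 7.50 in Hem1 KO, against 8.71 and 8.89 in WT, 3.05-fold lower (-1.61, SE 0.33, adjusted p = 0.0248 by limma). The call ended when WT replicate 2 (-1.52) or Hem1 KO replicate 1 (-1.30) was omitted, after quantile normalization (-1.67) and with dim genes left out (adjusted p = 0.0693). Of 6 eosinophil markers, Ccr3 included, Ccr3 was the 1 called, and 4 of the 6 were above background on no array.

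The measurable neutrophil attractants differed more between replicates than between genotypes, and none was called. Cxcl2 (MIP-2) read 9.15 and 6.77 in Hem1 KO, against 9.95 and 6.75 in WT. Replicate 1 was high and replicate 2 low in each genotype, and the gaps of 2.38 and 3.20 exceeded the difference of -0.38 (SE 0.84, interval -2.19 to 1.42). Leaving out 1 array set the sign of Cxcl2: it was 1.22 on omitting WT replicate 1 and 0.81 on omitting Hem1 KO replicate 2, neither called. It was called lower on omitting WT replicate 2 (-1.98, adjusted p = 0.00929 by limma) or the first Hem1 KO array (-1.57, adjusted p = 0.00774). Cxcl1 (KC) read 6.14 and 5.71 in Hem1 KO, against 6.28 and 5.23 in WT (0.17, SE 0.38), close to background and below it on WT replicate 2. Cxcl3 read 6.94 and 6.69 in Hem1 KO, against 7.13 and 6.55 in WT (-0.03, SE 0.33). Both overlapped between the genotypes, and both changed sign when single arrays were left out. Ppbp, the platelet basic protein, read 6.23 and 5.58 in Hem1 KO, against 7.20 and 4.86 in WT (-0.13, SE 0.56), so that the WT pair enclosed the Hem1 KO pair. The lower WT value of Ppbp, on replicate 2, was below background.

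Cxcl10, an interferon-induced ligand of CXCR3, read 6.92 and 5.51 in Hem1 KO, against 8.16 and 5.99 in WT. Replicate 1 was the higher array in both genotypes, and the groups overlapped. The difference of -0.86 (SE 0.59, interval -2.13 to 0.42) rested on WT replicate 1, without which it was 0.23. With WT replicate 2 omitted it was called lower (-1.94, adjusted p = 0.0120 by limma), and likewise with the first Hem1 KO array omitted (-1.56, adjusted p = 0.00846). Cxcr3 read 7.13 and 6.51 in Hem1 KO, against 7.10 and 6.64 in WT (-0.05).

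Genes that induce chemokines also differed by replicate. Of 19 NF-kB factors, targets and cytokines, 0 were called and 0 had an unadjusted p under 0.05 by limma, with a median of -0.07. Their median gap of replicate 1 over replicate 2 was 1.12 in Hem1 KO and 1.33 in WT, beside 0.38 and 0.28 over all genes. The 2 with the smallest p were Il6, below background on all arrays, and Tnfaip2 (-0.71, SE 0.42). Tnfaip2 lay between -1.24 and -0.17 when single arrays were omitted, the second of these on omitting Hem1 KO replicate 2, and was called lower where the prior variance followed intensity (adjusted p = 0.000499 by limma). Il1b, chosen after its values were seen, read 11.36 and 7.80 in Hem1 KO, against 11.81 and 8.38 in WT, with both replicates 1 high as for Cxcl2. Of 22 type I interferon response genes, Cxcl10 included, 0 were called, 5 were lower at an unadjusted p under 0.05, 21 lay below 0 and the median was -0.76. Their median gap was 0.06 in Hem1 KO and 1.63 in WT, and Irf7, chosen after its values were seen, read 7.21 and 7.25 in Hem1 KO, against 10.62 and 7.18 in WT, with WT replicate 1 far above the other 3 arrays. The 2 with the smallest p were Cmpk2 (-1.63, SE 0.46, adjusted p = 0.165 by limma) and Oasl2 (-1.03, SE 0.35, adjusted p = 0.405), and Cmpk2 was called on omitting any single array but WT replicate 1 (-0.76) and where the prior variance followed intensity (adjusted p = 0.00230). The part of either list in the values of Cxcl2 or Cxcl10 was not tested.

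Pf4 (platelet factor 4, a chemokine of platelet granules) and Cxcl16 were far above background in all cultures and overlapped between the genotypes. Pf4 read 12.70 and 12.39 in Hem1 KO, against 12.58 and 12.46 in WT, a difference of 0.03 (SE 0.32) with an interval of -0.66 to 0.71. Cxcl16, a membrane-bound ligand of CXCR6 that also takes up oxidized lipoprotein, read 12.36 and 12.13 in Hem1 KO, against 12.44 and 12.03 in WT, a difference of 0.01 (SE 0.32) with an interval of -0.68 to 0.71. Changes of these sizes in either direction remain possible, and the intervals are not the limit of what could be called. On simulated arrays the same model called 2% of 2-fold changes. Of 8 megakaryocyte and platelet markers, Pf4 and Ppbp included, none was called and 1 had an unadjusted p under 0.05 by limma (Treml1, -0.75, adjusted p = 0.724). Gp6, which had the next smallest p, was below background on all arrays.

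Cx3cl1 (fractalkine), the tethered ligand of CX3CR1, read 7.23 and 6.25 in Hem1 KO, against 7.16 and 5.70 in WT (0.31, SE 0.46). The replicate gaps of 0.98 and 1.46 exceeded the difference, which was -0.42 without WT replicate 2. Cx3cr1 read 8.02 and 8.59 in Hem1 KO, against 7.63 and 7.65 in WT, without overlap and not called (0.67, SE 0.33). Xcl1, the ligand by which lymphocytes call cross-presenting dendritic cells, read 6.997 and 5.99 in Hem1 KO, against 6.64 and 5.96 in WT (0.19, SE 0.39), close to background in replicate 2.

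Of 11 CC ligands for T cell and barrier traffic, 0 were called, 9 lay above 0 and the median was 0.13. Hem1 KO replicate 1 was the highest array for each of the 7 measurable ones. It also had the highest median of the 4 arrays over all genes (6.95). Ccl17 and Ccl22, the CCR4 ligands, read 6.96 and 6.28 (Ccl17) and 6.57 and 5.62 (Ccl22) in Hem1 KO, against 6.70 and 6.34 (Ccl17) and 5.96 and 5.97 (Ccl22) in WT. Ccl21a, a CCR7 ligand of lymph nodes, read 8.34 and 7.42 in Hem1 KO, against 7.63 and 7.36 in WT (0.38, SE 0.36), and Ccl21b differed by as much (0.38, SE 0.35). Without Hem1 KO replicate 1 both stood below 0, at -0.08 and -0.03. Ccl21a, Ccl21b and Ccl21c are nearly identical copies, and 1 of the 2 probe sets of Ccl21b read exactly as the probe set of Ccl21c, so these genes may share probes. The gut ligand Ccl25 (-0.16, SE 0.36) and the skin and mucosal CCR10 ligands Ccl27a (0.11, SE 0.34) and Ccl28 (-0.07, SE 0.34) overlapped between the genotypes as well.

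Across the 40 genes, the gap between replicates was mostly larger than the genotype difference, as it was over all genes. A gap compares single arrays and a difference compares means of 2 arrays. The larger of 2 gaps therefore usually exceeds the difference even where the genotypes are alike. At least 1 genotype had a replicate gap above the absolute difference in 35 of 40 genes (87.5%), against 82.9% of all genes. Before centring, the exceptions were Cxcl12, Cxcl14, Ccl6, Ccl9 and the dim Ccl19. The median absolute gap of the members was 0.68 in Hem1 KO and 0.43 in WT, against 0.41 and 0.30 over all genes, beside a median absolute genotype difference of 0.23 against 0.18. Replicate 1 was the brighter array in both genotypes for 36 of 40, against 70.8% of all genes. With each array centred on its median, this held for 13 of 40, against 17.6% of all genes. Gaps of 1 or more after centring remained in 6 members, against 3.98% of all genes. They were Cxcl2 (1.92 in Hem1 KO and 2.80 in WT), Ccl8 (1.41 and 1.90), Cxcl10 (0.95 and 1.77), Ppbp (0.18 and 1.93), Ccl12 (-0.33 and 1.11) and Cx3cl1 (0.52 and 1.06). For Ppbp and Ccl12, WT replicate 2 was below background. What the replicate numbers share is not given in the labels.

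**Figure D4:**
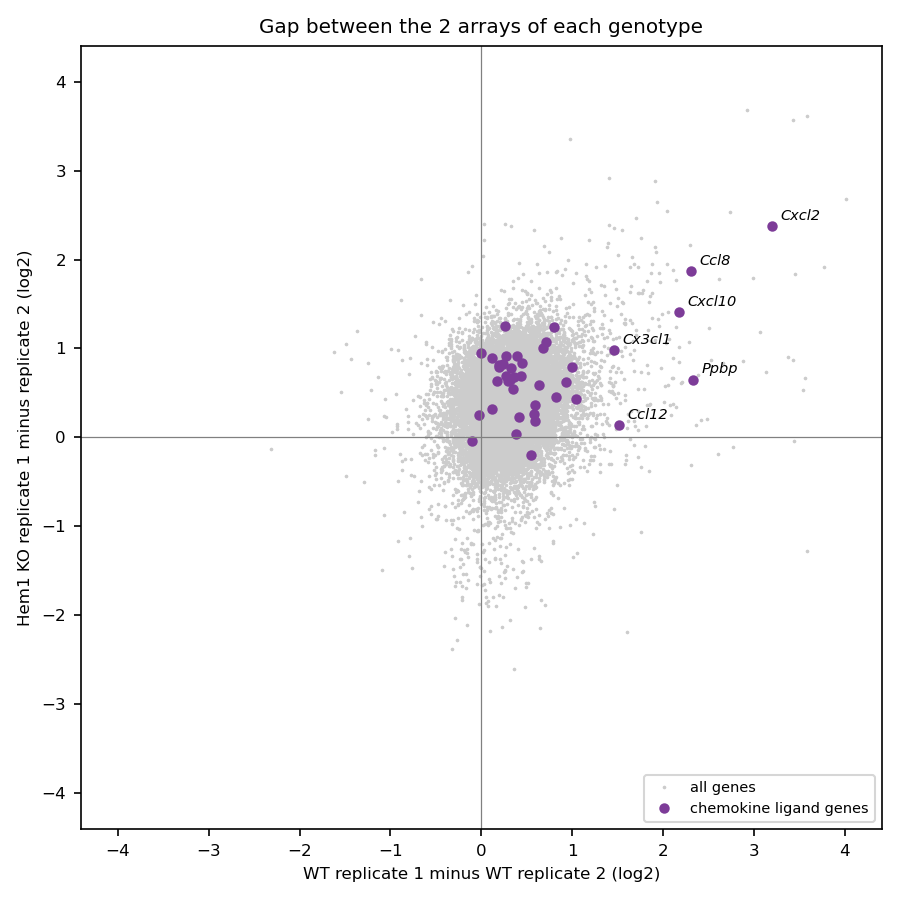
Replicate 1 minus replicate 2 (log2) in Hem1 KO (vertical axis) and in WT (horizontal axis) for all 19505 genes (gray) and the 40 chemokine ligand genes (purple), before centring. Cxcl2, Ccl8 and Cxcl10 lie far to the upper right, high on replicate 1 in both genotypes, and Ppbp and Ccl12 lie to the right, with a wide gap in WT.

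Among all 18 measured chemokine receptors, 0 were higher and 3 including Ccr3 were lower at an unadjusted p under 0.05 by limma, and the median was 0.01. Of 5 atypical receptors, which take up chemokines without a G protein signal, 0 were called and 0 had an unadjusted p under 0.05 by limma. Their median was 0.38, with 3 above 0 and 2 below. That median is the value of Ackr1, which was above background on no array. Only 1 of the 5, Ccrl2, was above background on all 4 arrays, and it differed by -0.52 (SE 0.70, not called). The 2 with the smallest p were Ackr3 and the CCR7 ligand scavenger Ackr4. Ackr4 was above background on both Hem1 KO arrays and neither WT array, and was not called. Its difference was 0.63 (SE 0.34, interval -0.09 to 1.36), or 1.20-fold with the WT values raised to background. Of 23 genes that carry the receptor signal, 0 were called by limma, 1 was lower at an unadjusted p under 0.05, 18 lay below 0 and the median was -0.23. The 2 with the smallest p were the G protein regulator Rgs18 (-0.79, SE 0.34, adjusted p = 0.810) and the kinase Ptk2b (-0.67, SE 0.33, not called).

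Proteases that cut chemokines differed in both directions. Of 14, 2 were higher and 2 lower, with a median of 0.04. Mmp2, a gelatinase that inactivates CXCL12, read 11.38 and 10.55 in Hem1 KO, against 8.66 and 8.12 in WT (2.58, SE 0.36, adjusted p = 0.00246 by limma), and Mmp14, which activates it, was 3.21-fold higher. Mmp8, a neutrophil collagenase that cleaves CXC ligands, read 6.12 and 5.69 in Hem1 KO, against 8.57 and 7.65 in WT (-2.21, SE 0.37, adjusted p = 0.00561), and Mmp9 was 3.37-fold lower. The calls of Mmp14 (1.23) and Mmp9 (-1.45) ended without WT replicate 2 and with dim genes left out, and that of Mmp9 also after quantile normalization. The stromal markers, with a median of 1.94, moved with Mmp2 and Mmp14, and their part was not tested.

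Few markers of the other cell types that make or answer chemokines were called. Of 9 macrophage markers, 0 were called, 1 was lower at an unadjusted p under 0.05 by limma, all 9 lay below 0, and the median was -0.30, with Fcgr1 at -0.74 and Adgre1 at -0.44. Fcgr1 was called lower where the prior variance followed intensity (adjusted p = 0.000749 by limma), and stood at -0.41 on omitting WT replicate 1. Of 10 basophil and mast cell markers, only Mcpt8 was called (18.9-fold higher, above background on 1 of 2 WT arrays), 7 were above background on no array, and the median was -0.01. Of 7 T cell markers, only Il7r was called (-1.56, SE 0.34, adjusted p = 0.0365), a call that ended without any 1 array other than Hem1 KO replicate 1, after quantile normalization and with dim genes left out. Of 8 endothelial markers, Cdh5 was called higher (adjusted p = 0.00622 by limma) and Vwf lower (-1.52, SE 0.31). Neither WT array was above background for Cdh5, which was 1.86-fold higher with the WT values raised to background. The call of Cdh5 ended after quantile normalization, and that of Vwf without either WT array. No gene was called by limma among 9 neutrophil, 10 dendritic cell, 6 B cell or 7 natural killer cell markers, and at an unadjusted p under 0.05 these 4 lists held 1 gene, Ebf1. All 7 natural killer cell markers, Gzmb and Ncr1 among them, were above background on no array. The dendritic cell list had a median of -0.09, with 5 of 10 markers above background on no array, Itgax at -0.93 and Batf3 at -0.29. Itgax was called lower on omitting WT replicate 1 (-1.67, adjusted p = 0.0465 by limma) and where the prior variance followed intensity (adjusted p = 0.0216), but stood at -0.19 on omitting WT replicate 2. Batf3 lay between -0.52 on omitting Hem1 KO replicate 1 and -0.06 on omitting Hem1 KO replicate 2. The B cell list had a median of -0.19, and Pax5 was above background on neither Hem1 KO array. Its difference of -0.73 (SE 0.36, interval -1.50 to 0.03) was not called. With the Hem1 KO values raised to background, Pax5 was 1.12-fold lower. Ebf1 (1.76, SE 0.42, adjusted p = 0.0586 by limma) read 10.93 and 9.64 in Hem1 KO, against 8.84 and 8.22 in WT, without overlap. It was called higher on omitting WT replicate 1 (2.06, adjusted p = 0.00313) or Hem1 KO replicate 2 (2.40, adjusted p = 4.01e-07), after median centring (adjusted p = 0.00987) and where the prior variance followed intensity (adjusted p = 2.27e-09), and stood at 1.11, not called, on omitting Hem1 KO replicate 1. Of the neutrophil markers 5 of 9 were above background on no array, S100a8 among them, and 1 on all 4, with a median of -0.18. Camp read 6.48 and 5.57 in Hem1 KO, both above background, against 5.71 and 5.26 in WT, both below it. Its arrays overlapped between the genotypes. The difference of Camp (0.54, SE 0.37) was not called, and it stood at 0.08 without Hem1 KO replicate 1. The neutrophil marker sum was 498 and 296 in Hem1 KO, against 484 and 317 in WT, and includes the markers below background.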

How the data were processed

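Expression was measured in 4 macrophage cultures on 1 Affymetrix array each, after biotin labelling with the GeneChip Pico kit per the labels' protocols. The deposited log2 values come from RMA, per the submitters' processing notes, without a version or settings. The log2 scale was read from the values, and the labels do not tell whether arrays were quantile normalized. Of 29129 rows, 19572 name 1 gene in the platform annotation. For 55 genes with several probe sets the one with the highest mean was kept, which left 19505 genes. Every gene entered 1 limma model (version 3.58.1, run in R 4.3.3, with lmFit and eBayes, genotype as the only term, 11.2 prior degrees of freedom, two-sided, Benjamini-Hochberg adjustment over all genes, no filter). On simulated arrays this model called 2% of 2-fold and 82.5% of 4-fold changes, so an uncalled gene may differ 2-fold. Those arrays had independent noise and, unlike the real ones, no shift between replicates. The members, lists, motifs and tests were chosen with earlier results of these data known, so no list or pattern is independent evidence. Members above background on both arrays of a genotype are given by array. Of other lists, called members (up to 6, beyond that 4, smallest p first), otherwise the 2 with the smallest p, are named. Lists are described by counts and medians, without a set test. RefSeq (GRCm38.p6) served for promoters and for which genes neighbour each other. Alternatives omitted each array in turn, blocked on the replicate number, centred arrays on their median, applied quantile normalization, filtered dim genes, let the prior follow intensity, averaged probe sets, tested all probe sets or changed the threshold or background. A fit with 1 array in an arm assumes that it varies like the other arm.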

Additional observations from a re-analysis of the deposited data

How the results depend on the processing

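Cxcl12 kept its direction and its call under every alternative run. The count of members called higher, 1, was 1 to 3 when single arrays were left out, 2 with the replicate number as a block and 2 where the prior followed intensity. The count called lower, 0, was 0 to 2 when single arrays were left out and 1 where the prior followed intensity. Over all the pathway and marker lists, without the ligands, 5 genes were called lower, with 4 to 10 when single arrays were left out, 11 with the block, 3 after quantile normalization, 2 with dim genes left out and 12 where the prior followed intensity. The replicate number is shared by the genotypes in the sample titles only. Across genes, the replicate gaps of Hem1 KO and WT correlated at 0.24 (genes are not independent replicates). With the replicate block, Ccl8 (1.12) was called higher (adjusted p = 0.00560 by limma), as was Ebf1 (adjusted p = 0.000125), while Cmpk2 (adjusted p = 0.00950) and Oasl2 (adjusted p = 0.0190) were called lower, and the calls over all genes were 620 higher (3.18%) and 199 lower (1.02%), against 288 and 26 without it. Omitting an array gave 185 and 54 (WT replicate 2), 270 and 101 (Hem1 KO replicate 1) or 545 and 53 (Hem1 KO replicate 2), and the counts were 400 and 70 with centring, 314 and 16 after quantile normalization, 174 and 8 with dim genes left out, and 409 and 205 where the prior followed intensity; the cause was not tested. With centring, Pf4 stood at -0.075 and Cxcl16 at -0.090, on the other side of 0. Leaving out single arrays turned the sign of these genes, over the ranges given: Ccl17 (-0.23 to 0.44), Ccl2 (-0.41 to 0.19), Ccl21a (-0.077 to 0.84), Ccl21b (-0.028 to 0.78), Ccl22 (-0.34 to 0.60), Ccl24 (-0.38 to 0.86), Ccl25 (-0.61 to 0.29), Ccl27a (-0.24 to 0.45), Ccl28 (-0.39 to 0.25), Ccl3 (-0.93 to 0.0084), Ccl4 (-0.54 to 0.0090), Ccl7 (-0.060 to 0.76), Ccl8 (-0.030 to 2.28), Cx3cl1 (-0.42 to 1.04), Cxcl1 (-0.35 to 0.69), Cxcl10 (-1.94 to 0.23), Cxcl16 (-0.20 to 0.22), Cxcl2 (-1.98 to 1.22), Cxcl3 (-0.32 to 0.26), Pf4 (-0.13 to 0.18), Ppbp (-1.30 to 1.04), Xcl1 (-0.31 to 0.70), Gp6 (-0.15 to 0.61), Gzmb (-0.21 to 0.97) and Ncr1 (-0.039 to 0.55). Calls in such fits are weak evidence, since the lone array of a genotype is assumed to vary like the pair.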
